A study of Homo sapiens with 6 samples.

Results

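The core genes of the basement membrane were followed in 786-O cells, a human renal carcinoma line, after CRISPR/Cas9 targeting of PLOD2, which encodes a lysyl hydroxylase of collagen. The 9 genes are both nidogens (NID1, NID2), the heparan sulfate proteoglycans agrin (AGRN) and perlecan (HSPG2), the collagen IV chains COL4A1, COL4A2 and COL4A5, and the related collagens COL15A1 and COL18A1. They were found by gene name among the 58395 rows of the deposited table, and each name matched 1 row. The set was chosen by family, but on the basis of earlier results from these same FPKM values, in which NID2 was higher and NID1 lower after PLOD2 targeting. Their differences between the groups are therefore described without a test, and counts of called core genes support nothing.

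RNA sequencing covered 6 libraries. The sgControl group holds 3 libraries of 786-O cells with a control guide, labelled as control treatment. The sgPLOD2 group holds 3 libraries of the same line with a PLOD2 guide, labelled as knockout, and both groups were grown in the same serum-supplemented medium. The labels do not say whether the edited cells were 1 clone or a pool. They also leave unsaid whether each library came from its own culture, so that p-values reflect the scatter of these libraries alone, possibly a technical one. The question of the series was how loss of PLOD2 alters the transcriptome of these cells, within work on differentiation treatment of sarcomatoid renal carcinoma.

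The basement membrane is a thin sheet of matrix beneath epithelia and around vessels. Laminin and collagen IV each form a network, and nidogens and perlecan bind to both and help to link them, while agrin ties laminin to receptors at the cell surface. In the kidney it lies under every tubule and forms the filter of the glomerulus, whose adult collagen IV contains the product of COL4A5, a gene mutated in Alport syndrome. Collagens XV and XVIII carry chondroitin or heparan sulfate chains and lie at the border between basement membrane and stroma, and the end of collagen XVIII is released as endostatin.

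PLOD2 itself had 26.8, 25.7 and 21.5 FPKM in sgControl, against 5.98, 10.1 and 6.64 FPKM in sgPLOD2. FPKM is fragments scaled by transcript length and by the mapped fragments of the library, so levels of different genes can be compared. Known features of the line were met in part. CDKN2A, which is deleted in 786-O, was at or below 0.0251 FPKM in every library, and the renal lineage factor PAX8 averaged 28.0 and 24.0 FPKM. HIF1A, whose product 786-O is known to lack, had 0.420 ± 0.115 FPKM (SD, n = 3) in sgControl and 37.7 ± 1.84 FPKM in sgPLOD2, while EPAS1 had 12.0 ± 1.18 and 24.6 ± 1.49 FPKM. The groups thus differ in more than PLOD2, and for every gene below a difference between cell populations and an effect of PLOD2 loss cannot be told apart. In bulk RNA, likewise, fewer cells expressing a gene and less RNA per cell cannot be told apart. Of markers of other cell types that make basement membrane, the 6 endothelial markers summed to 0.0405 to 0.0658 FPKM in sgControl, against 0.223 to 0.350 FPKM in sgPLOD2, with VWF listed at 0 throughout. The 5 fibroblast and pericyte markers in the table summed to 0.259 to 0.509 and 0.322 to 0.478 FPKM, with DCN listed at 0 throughout. Most of the sgControl sum was LUM, which averaged 0.345 and 0.216 FPKM with overlap. PDGFRB (0.0197 and 0.179 FPKM) and COL1A2 (0 and 0.0133 FPKM) were higher in sgPLOD2 without overlap. The 4 podocyte markers summed to 48.2 to 68.9 and 50.4 to 58.6 FPKM. Among them NPHS1 was listed at 0 in all libraries, SYNPO averaged 58.7 and 43.9 FPKM, and PODXL rose from 1.24 ± 0.25 to 9.80 ± 0.77 FPKM (log2 difference 2.27, adjusted p = 1.27e-05). The 6 leukocyte markers summed to 11.5 to 18.3 and 5.59 to 6.63 FPKM, nearly all from CD68, with CD3E listed at 0. The part of these markers in the results was not tested.

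Most of the core was expressed, and its 5 more abundant genes were lower in sgPLOD2, as was NID1, while NID2 was higher. Of the 9 genes, 7 reached the mean of 1 FPKM over all libraries that was required for the limma fit over all genes. In that fit 1 of these 7, NID2, was called higher and 6 were called lower, at an adjusted p under 0.05. The lower calls of COL4A1 and HSPG2 were unsteady, kept in 6 and 9 of 19 alternative analyses. NID1, AGRN, COL4A2 and COL18A1 kept theirs in each alternative in which they were fitted. The set was chosen on these same values, so a kept call describes dependence on processing and is no support. Over all 10469 tested genes 29.5% were called higher, 23.5% lower and 52.9% in either direction. The groups did not overlap in any of the 7, and over all tested genes that held for 28.0% on the lower side and 34.7% on the higher side. The median difference of the 7 was -0.70 on log2(FPKM + 1), against 0.06 for all tested genes. The summed FPKM of all 9 genes was 450, 506 and 460 in sgControl and 264, 297 and 312 in sgPLOD2. Total FPKM over all genes was also lower in every sgPLOD2 library than in every sgControl library. Under TPM, which sets these totals equal, COL4A1 differed by -0.37 and HSPG2 by -0.31, and neither was called.

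**Figure D1:**
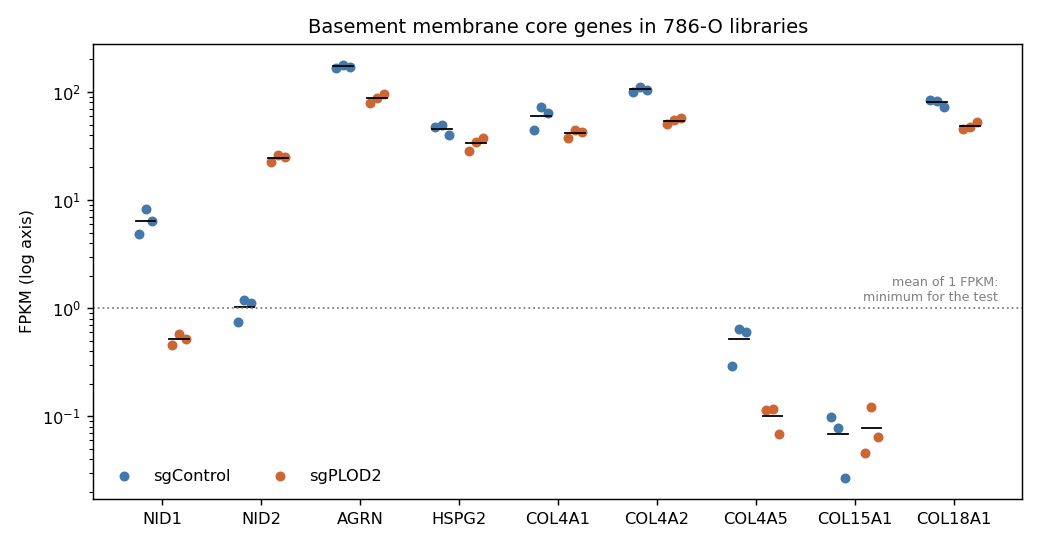
FPKM of each core gene (log axis) in the 3 sgControl (blue) and 3 sgPLOD2 (orange) libraries, with black bars at the group means and a dotted line at 1 FPKM. NID1 and NID2 exchange places, AGRN, HSPG2, COL4A1, COL4A2 and COL18A1 are all lower in sgPLOD2, and COL15A1 overlaps between the groups.

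In sgControl the order of levels ran from AGRN (172 FPKM) through COL4A2 (106), COL18A1 (80.1), COL4A1 (60.2), HSPG2 (45.6), NID1 (6.44), NID2 (1.03) and COL4A5 (0.513) to COL15A1 (0.0676). The ranges of COL4A1 and HSPG2 overlapped, and those of all other neighbours in that order did not. In sgPLOD2 AGRN again led (87.5 FPKM), followed by COL4A2 (54.2), COL18A1 (48.8), COL4A1 (41.6), HSPG2 (33.7), NID2 (24.6), NID1 (0.515), COL4A5 (0.0998) and COL15A1 (0.0769). There the ranges of COL4A2 and COL18A1, of COL4A1 and HSPG2, and of COL4A5 and COL15A1 overlapped. The order of the 5 most abundant genes was the same in both groups, and the 1 exchange was between NID1 and NID2.

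Nidogens are rod-shaped glycoproteins that bind the laminin gamma 1 chain and collagen IV, and the products of both genes can bridge these networks. NID1 (ENSG00000116962; GRCh38, chromosome 1, 235975830 to 236065109, minus strand) had 4.81, 8.18 and 6.34 FPKM in sgControl, against 0.458, 0.572 and 0.515 FPKM in sgPLOD2. Every sgPLOD2 library was thus far below every sgControl library, and 7.99% of the mean control level remained. NID2 (ENSG00000087303; chromosome 14, 52004803 to 52069228, minus strand) had 0.749, 1.20 and 1.12 FPKM in sgControl, against 22.4, 26.1 and 25.1 FPKM in sgPLOD2. The sgPLOD2 mean was 24.0 times the sgControl mean, and the lowest sgPLOD2 library was 18.6 times the highest sgControl library. On log2(FPKM + 1), which understates changes at low levels, the differences were -2.27 ± 0.16 (SE) for NID1 and 3.66 ± 0.12 for NID2. The authors' deposited table, which was computed from normalized counts, gives -3.74 and 4.48.

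As a share of both nidogen transcripts, NID2 made up 13.5%, 12.8% and 15.0% in sgControl and 98.0%, 97.9% and 98.0% in sgPLOD2. Their sum was 5.56, 9.39 and 7.47 FPKM in sgControl, against 22.9, 26.7 and 25.7 FPKM in sgPLOD2. The nidogen total was therefore higher in sgPLOD2 although NID1 was far lower there. The share was almost constant within a group, although sgControl replicate 1 had lower NID1 and NID2 than the other control libraries.

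**Figure D2:**
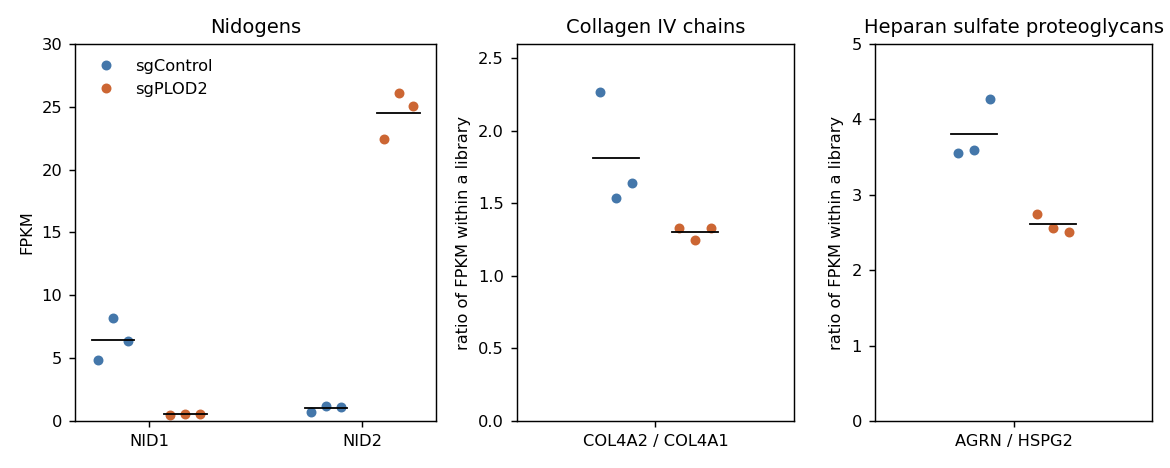
Left, FPKM of NID1 and NID2; middle and right, the COL4A2 to COL4A1 and AGRN to HSPG2 ratios of FPKM within each library, for sgControl (blue) and sgPLOD2 (orange), with bars at the group means. NID2 is at 22.4 to 26.1 FPKM in sgPLOD2, and both ratios are lower there than in every sgControl library.

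The promoter windows of both nidogen genes are shown because these genes differed in opposite directions. They run from 250 bases before to 50 bases after the RefSeq start (GRCh38.p14), 5′ to 3′ on the minus strand, at chr1:236065041-236065340 for NID1 and chr14:52069010-52069309 for NID2. Capitals mark each match, on either strand, to the GC box letters GGGCGG or the CCAAT box letters CCAAT, and adjoining matches run together.
NID1: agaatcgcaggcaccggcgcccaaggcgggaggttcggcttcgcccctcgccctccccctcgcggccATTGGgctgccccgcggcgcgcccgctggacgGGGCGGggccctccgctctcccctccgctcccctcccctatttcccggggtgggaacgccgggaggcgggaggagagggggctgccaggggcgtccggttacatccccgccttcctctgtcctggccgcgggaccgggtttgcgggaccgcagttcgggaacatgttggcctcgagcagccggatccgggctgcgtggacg
NID2: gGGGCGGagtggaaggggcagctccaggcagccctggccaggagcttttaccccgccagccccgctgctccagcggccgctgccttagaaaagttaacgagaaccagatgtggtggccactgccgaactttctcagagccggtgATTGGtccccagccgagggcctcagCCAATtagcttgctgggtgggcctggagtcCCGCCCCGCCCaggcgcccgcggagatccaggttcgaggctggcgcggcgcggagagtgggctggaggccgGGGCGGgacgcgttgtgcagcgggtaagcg
The NID1 window held 1 GC box and 1 CCAAT box match, and the NID2 window held 4 and 2. Of 35114 RefSeq windows of this length, 45.0% held at least 1 GC box match and 34.6% at least 1 CCAAT box match. The cores ACGTG or GCGTG of the hypoxia response element matched once in NID1 and not in NID2, and 48.4% of all windows held a match. TATAAA was in neither window and in 11.5% of all. GC content was 74.7% and 69.0%. These are matches of letters and no measure of binding.

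The 5 tested genes whose profile over the 6 libraries was nearest to that of NID1 were COL5A2, PHETA2, ZNF185, LCP1 and PXDN. Nearness was the Euclidean distance between log2(FPKM + 1) profiles centred on their own means, and it was 0.17, 0.27, 0.29, 0.30 and 0.32 in that order. COL5A2 encodes a fibrillar collagen V chain and PXDN peroxidasin, the enzyme that forms sulfilimine cross-links in collagen IV. For NID2 the nearest were CHRDL1, CRISPLD2, SCD, NTN1 and SCARA3, at distances of 0.25, 0.44, 0.51, 0.73 and 0.78. CHRDL1 encodes a secreted BMP antagonist, which had means of 3.33 and 49.4 FPKM, and NTN1 encodes netrin 1, a laminin-related guidance protein, with 0.106 and 8.51 FPKM. These genes were picked for their likeness over libraries that fall into the same groups, so no test applies.

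Agrin and perlecan are large proteoglycans that carry heparan sulfate. AGRN (ENSG00000188157; chromosome 1, 1020120 to 1056118, plus strand) had 167, 179 and 171 FPKM in sgControl, against 78.5, 88.8 and 95.1 FPKM in sgPLOD2. The groups were well apart, and the sgPLOD2 mean was 50.8% of the control mean. HSPG2 (ENSG00000142798; chromosome 1, 21822244 to 21937310, minus strand) had 47.0, 49.7 and 40.1 FPKM in sgControl, against 28.6, 34.7 and 37.8 FPKM in sgPLOD2. Here the highest sgPLOD2 library came close to the lowest control library, and 73.9% of the control mean remained.

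The differences on log2(FPKM + 1) were -0.97 ± 0.09 (SE) for AGRN and -0.43 ± 0.13 for HSPG2. Within a library, AGRN was 3.55, 3.59 and 4.27 times HSPG2 in sgControl and 2.75, 2.56 and 2.51 times in sgPLOD2, without overlap. Under the alternative scalings, filters and left-out libraries the difference of HSPG2 lay between -0.52 and -0.31.

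COL4A1 and COL4A2 encode the alpha 1 and alpha 2 chains, which assemble into the most widespread collagen IV trimer, and the genes lie head to head on chromosome 13. COL4A2 (ENSG00000134871; 110305812 to 110513209, plus strand) had 101, 112 and 104 FPKM in sgControl, against 50.3, 55.4 and 56.9 FPKM in sgPLOD2. All sgPLOD2 libraries were clearly below the control libraries, with 51.2% of the mean remaining. COL4A1 (ENSG00000187498; 110148963 to 110307157, minus strand) had 44.4, 72.6 and 63.4 FPKM in sgControl, against 37.7, 44.2 and 42.9 FPKM in sgPLOD2. The groups only just failed to overlap, since sgControl replicate 1 at 44.4 FPKM lay next to sgPLOD2 replicate 2 at 44.2 FPKM.

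On log2(FPKM + 1) the differences were -0.95 ± 0.09 (SE) for COL4A2 and -0.50 ± 0.18 for COL4A1. The COL4A1 difference was -0.70 without sgControl replicate 1 and -0.35 without sgControl replicate 2. The COL4A2 to COL4A1 ratio was 2.27, 1.54 and 1.64 in sgControl and 1.33, 1.25 and 1.33 in sgPLOD2. It was thus lower in each sgPLOD2 library, and the highest value was that of sgControl replicate 1. Both genes overlap in the annotation at their 5′ ends on opposite strands, and the strand setting of the counting is not given in the sources used here, so reads of that stretch may have been assigned to either. The same holds for RTRAF, which overlaps NID2 on the opposite strand and had 6.34 to 11.5 FPKM, for LDLRAD2 at HSPG2 (0.584 to 2.93 FPKM) and for SLC19A1 at COL18A1 (9.52 to 11.0 FPKM).

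The stretch between both start sites is shown because the pair shares it and both genes were lower in sgPLOD2. It is printed 5′ to 3′ on the plus strand, the strand of COL4A2, as the RefSeq window chr13:110307034-110307333 (GRCh38.p14), and capitals mark the 126 bases between the COL4A1 start at 110307157 and the COL4A2 start at 110307284.
COL4A1-COL4A2: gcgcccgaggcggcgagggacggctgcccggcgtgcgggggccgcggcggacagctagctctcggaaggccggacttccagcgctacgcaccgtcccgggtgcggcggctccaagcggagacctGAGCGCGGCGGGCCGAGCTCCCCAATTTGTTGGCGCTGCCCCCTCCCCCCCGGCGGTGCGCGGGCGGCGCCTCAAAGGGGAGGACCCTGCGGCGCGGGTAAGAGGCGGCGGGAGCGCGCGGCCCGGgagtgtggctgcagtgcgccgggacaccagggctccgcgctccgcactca
Those 126 bases had a GC content of 80.2% and held 1 GC box and 1 CCAAT box match, with no match to TATAAA or to the hypoxia response element cores. The whole printed window did hold 1 match to these cores, among the bases in lower case. Of all RefSeq windows of that full length, 48.4% held at least 1. The windows of both genes had 226 bases in common.

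COL4A5 (ENSG00000188153; chromosome X, 108439838 to 108697545, plus strand) was rare in both groups. It had 0.292, 0.643 and 0.604 FPKM in sgControl, against 0.115, 0.116 and 0.0686 FPKM in sgPLOD2, and 19.5% of the control mean remained. The groups did not overlap, but the mean over all libraries was below 1 FPKM and the gene was not tested. The log2(FPKM + 1) difference was only -0.45, while the authors' deposited table gives a log2 fold change of -2.45 with a standard error of 0.34, at a mean normalized count of 508. COL4A3 and COL4A4, whose products join that of COL4A5 in the glomerular trimer, and COL4A6, its neighbour on chromosome X, were close to absent, at group means of at most 0.00380 FPKM. COL4A1 transcripts exceeded those of COL4A5 by 105 to 152 times in sgControl and 327 to 625 times in sgPLOD2.

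COL18A1 (ENSG00000182871; chromosome 21, 45405165 to 45513720, plus strand) had 84.7, 82.7 and 72.8 FPKM in sgControl, against 45.6, 47.4 and 53.3 FPKM in sgPLOD2. The groups did not overlap, 60.9% of the control mean remained, and the log2 difference was -0.70 ± 0.10 (SE). RefSeq gives this gene 2 start sites, at 45405165 and 45455522, which a value per gene cannot tell apart. Its relative COL15A1 (ENSG00000204291; chromosome 9, 98943179 to 99070792, plus strand) had 0.0987, 0.0777 and 0.0266 FPKM in sgControl, against 0.0455, 0.121 and 0.0644 FPKM in sgPLOD2. These ranges overlapped, the gene was not tested, and the authors' deposited table gives it a mean normalized count of 65.6 and a log2 fold change of 0.10 with a standard error of 0.59.

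Single libraries moved several core genes together. Within sgPLOD2, replicate 1 had the lowest value of the group for 8 of the 9 genes. Within sgControl, replicate 1 was lowest for 6 of the 9 and replicate 2 highest for 7. Mitochondrial genes took 12.9% of the FPKM of sgControl replicate 1 and 6.01% to 7.50% of the other libraries, and the part of this in the core genes' values was not tested.

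Genes around some core genes also differed between the groups. Of 10 other tested genes within 1 Mb of NID2, 9 were called higher and 0 lower, with a median of 0.70 and a highest value of 1.43, and the median of chromosome 14 was 0.54. NID2 differed by 3.66, and with chromosome medians removed by 3.12. Around COL4A1 and COL4A2, 5 of 7 tested genes were called lower and 0 higher, with a median of -0.57. In windows of 5 Mb that median was -0.37, and that of chromosome 13 was -0.12, so the COL4A1 difference of -0.50 lay between the medians of the nearer and the wider surroundings. Around AGRN, 26 of 41 were called lower and 4 higher, with a median of -0.40. Around NID1, HSPG2 and COL18A1 the medians were 0.15, 0.32 and 0.22 within 1 Mb and -0.13, -0.06 and 0.05 within 5 Mb. Within 1 Mb of NID1, 4 of 12 tested genes were called higher and 2 lower. At HSPG2 these were 4 and 1 of 7, and at COL18A1 7 and 5 of 20. Over all tested genes 29.5% were called higher and 23.5% lower. The part of such regional differences in the results was not tested.

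**Figure D3:**
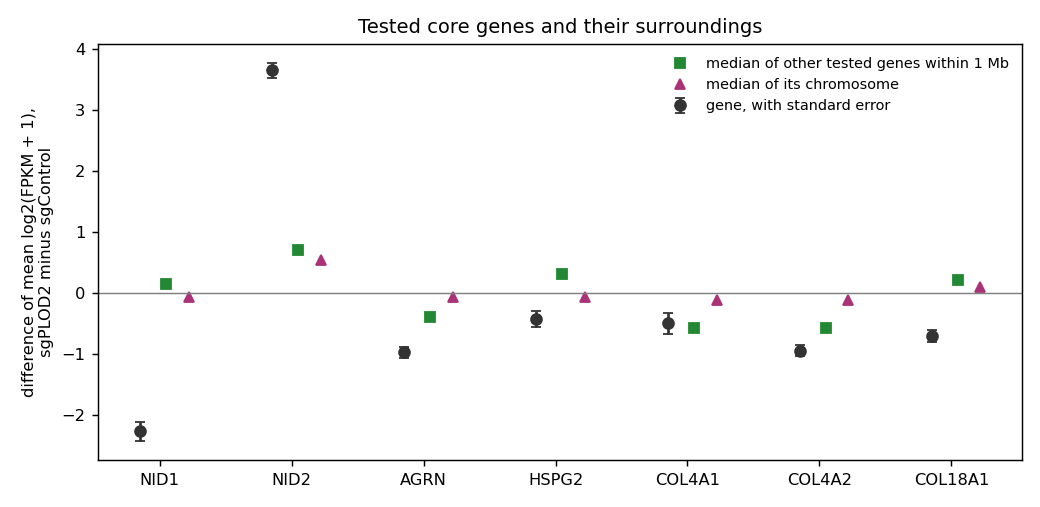
Difference of mean log2(FPKM + 1), sgPLOD2 minus sgControl, of each tested core gene (black, with its standard error), the median of other tested genes within 1 Mb (green squares) and the median of its chromosome (purple triangles). NID1 and NID2 lie far from their surroundings, whereas COL4A1, at -0.50, lies beside the median of genes within 1 Mb at -0.57 and below that of its chromosome at -0.12.

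The partners of the core were taken from 6 lists drawn up from textbook knowledge, but with earlier results of these data known. Their counts are therefore a description. The lists held 115 genes, of which 75 were tested. Of these, 30 rose and 17 fell, with a median of 0.25, where 29.5% of all tested genes rose and 23.5% fell. In either direction 62.7% were called, against 52.9% of all tested genes. The split depended on scaling: 35 rose and 13 fell under TPM, where the median of all tested genes was 0.20 in place of 0.06 and 66.8% of all calls were on the higher side in place of 55.7%. In the other direction, 26 rose and 17 fell under median-of-ratios scaling, and 25 rose and 21 fell with chromosome medians removed.

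Laminins are the trimers on which the sheet is built. Of 12 laminin chain genes 6 were tested, 2 rose and 1 fell, with a median of 0.24. The share called was near the 52.9% of all tested genes, of which 29.5% rose and 23.5% fell. LAMB3, a beta chain of epidermal-type laminin, fell from 75.1 ± 5.41 to 44.3 ± 3.00 FPKM (SD, n = 3 each), with a log2 difference of -0.75 and an adjusted p of 0.000663. LAMB1 rose by 0.65 (adjusted p = 0.00778, but 0.0570 once a trend on GC content and transcript length was taken out). LAMC1, the chain to which nidogens bind, had 51.8 ± 14.3 and 58.0 ± 5.21 FPKM and was not called (log2 difference 0.19, adjusted p = 0.436, and -0.03 without sgControl replicate 1).

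Among 25 other basement membrane proteins 8 were tested, 6 rose and 1 fell, with a median of 0.75. That is 87.5% called, against 52.9% of all tested genes. The gene that fell was PXDN, with 4.44, 8.57 and 7.17 FPKM in sgControl, against 0.796, 0.758 and 0.810 FPKM in sgPLOD2 (log2 difference -2.07 ± 0.20 SE, adjusted p = 0.000246). MATN2, which encodes a filament-forming matrilin, rose by 1.21 (adjusted p = 0.000164). EGFLAM, the gene of the dystroglycan ligand pikachurin, rose from 1.78 ± 0.15 to 4.60 ± 0.24 FPKM (adjusted p = 0.000167). VWA1, whose product binds perlecan, rose from 0.288 ± 0.067 to 1.94 ± 0.22 FPKM (adjusted p = 9.18e-05), although it lies on chromosome 1 within 1 Mb of AGRN, where most called genes fell.

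Integrins, dystroglycan, syndecans and discoidin domain receptors attach cells to the basement membrane. Of 15 receptor genes 11 were tested, 7 rose and 1 fell, with a median of 0.51, where 29.5% of all tested genes rose and 23.5% fell. The integrin alpha chain genes ITGAV and ITGA6, the latter for a laminin receptor, rose from 12.3 ± 2.55 to 28.0 ± 4.41 FPKM and from 2.90 ± 0.93 to 7.03 ± 0.67 FPKM (adjusted p = 0.00146 and 0.00268). The collagen-activated kinase gene DDR1 rose by 0.66 (adjusted p = 0.00163). The syndecan gene SDC4 was the 1 that fell, by 0.74 on the log2 scale (adjusted p = 0.00253). The dystroglycan gene DAG1, a receptor for agrin, perlecan and laminin, had 1.33, 20.3 and 4.28 FPKM in sgControl, against 5.74, 3.13 and 3.31 FPKM in sgPLOD2. It was not called (log2 difference -0.38, adjusted p = 0.685), and its direction rested on sgControl replicate 2, without which the difference was 0.49 (adjusted p = 0.310).

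Collagen IV is hydroxylated, glycosylated and folded in the endoplasmic reticulum and leaves it in large carriers. Of 22 genes for these steps 20 were tested, 5 rose and 7 fell, with a median of -0.07. That is 60.0% called, against 52.9% of all tested genes. Falls that passed the test included PLOD3, for the lysyl hydroxylase that also glycosylates, by 1.03, the prolyl hydroxylase subunit P4HB by 0.85, and the prolyl 3-hydroxylase family genes P3H3 and P3H1 by 0.75 and 0.69 on the log2 scale (adjusted p = 8.36e-05, 0.000352, 0.000425 and 0.00117). SERPINH1, for the collagen chaperone HSP47, rose from 51.2 ± 3.79 to 83.3 ± 12.7 FPKM (log2 difference 0.68, adjusted p = 0.00387). Of 20 genes that build or edit heparan sulfate 15 were tested, 6 rose and 2 fell, with a median of 0.19. The share called, 53.3%, was near that of all tested genes. The sulfotransferase gene HS6ST2 rose from 1.42 ± 0.29 to 4.62 ± 0.49 FPKM and EXTL2, for a glycosyltransferase, by 0.74 (adjusted p = 0.000258 and 0.00253). B3GAT3, for the enzyme that completes the linker of the chain, fell by 0.91 (adjusted p = 0.00214, but 0.0506 once that trend was taken out). NDST1, for a sulfotransferase, rose from 52.4 ± 16.9 to 79.8 ± 5.21 FPKM (log2 difference 0.65). Its adjusted p was 0.0483, and it kept its call in 9 of 19 alternatives.

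Of 21 genes for basement membrane proteases and their inhibitors 15 were tested, 4 rose and 5 fell, with a median of 0.19. That is 60.0% called, near the 52.9% of all tested genes, of which 29.5% rose and 23.5% fell. CTSS, for cathepsin S, which can cleave nidogen 1, had 8.83, 10.0 and 9.91 FPKM in sgControl, against 0.593, 0.811 and 0.483 FPKM in sgPLOD2 (log2 difference -2.70, adjusted p = 4.88e-06). MMP2, for a gelatinase that cleaves collagen IV, had 10.8, 9.32 and 12.1 FPKM in sgControl, against 82.8, 68.7 and 74.2 FPKM in sgPLOD2 (log2 difference 2.70, adjusted p = 6.22e-06). MMP1, an interstitial collagenase gene, fell by 1.61 on the log2 scale, and MMP15, for a membrane-bound metalloproteinase, rose by 1.16 (adjusted p = 4.58e-05 and 0.000133).

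**Figure D4:**
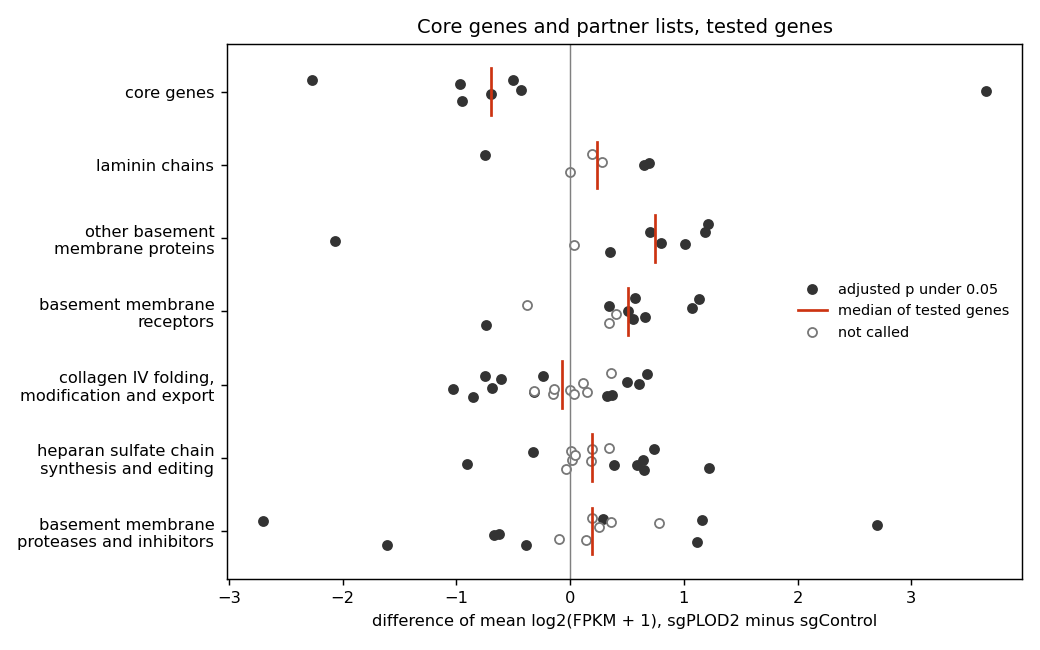
Difference of mean log2(FPKM + 1), sgPLOD2 minus sgControl, of each tested core gene and of the tested genes of the 6 partner lists (filled, limma adjusted p under 0.05; open, not called; vertical scatter is for display), with red bars at the median of each list. Core genes lie at -2.27 to -0.43 except NID2 at 3.66, and the other basement membrane proteins lie above 0 except PXDN at -2.07.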

How the data were processed

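RNA was sequenced from 3 sgControl and 3 sgPLOD2 libraries. The authors deposited 1 FPKM value per gene and library, per the file headers. The submitters' processing notes list HISAT2 2.1.0, StringTie 1.3.4, CASAVA and the build GRCh38 but no roles. Settings, annotation release and strandedness: not given in the sources used here. The deposited table also holds the authors' own comparison: a mean normalized count per gene (a signal that is not a whole number), p-values, a test score, and a log2 fold change and its error, per the file headers. Totals per library were 229485 to 268612 FPKM. FPKM did not resolve into whole reads, which leaves the sequencing depth unknown and allows no counting interval.

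The deposited FPKM, as log2(FPKM + 1), entered a fit with limma 3.58.1 (R 4.3.3; intensity trend, 2-sided, Benjamini-Hochberg adjustment over the 10469 genes whose mean reached 1 FPKM, threshold 0.05). Recovery of known differences by these limma steps was tested on simulated data. Called means an adjusted p under 0.05. Differences are sgPLOD2 minus sgControl. Chromosomes, lengths and overlaps came from GENCODE 29 on GRCh38, which held 58275 of the identifiers, and GC content and length were those of the longest transcript. Promoter windows came from RefSeq (GRCh38.p14), which gave them for 8 of the 9 genes.

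The core genes and all lists were chosen with earlier results of these data known. Named partners are the 4 called genes with the largest absolute difference in each list (fewer where fewer were called). Of these, 1 is not reported here. LAMC1, DAG1, SERPINH1, SYNPO, PODXL and the genes listed under other observations were named after their values had been seen. As alternatives, 19 in number, the analysis was repeated with a pseudocount of 0.1 or 0.5, no filter (without genes at 0 in all libraries), a minimum of 5 FPKM, median-of-ratios scaling, TPM over all genes or leaving out mitochondrial and ribosomal protein genes, quantile normalization, no trend, robust estimation, the replicate block, removal of chromosome medians or of a smooth GC and length trend (mgcv 1.9.3), and leaving out each library.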

Additional observations from a re-analysis of the deposited data

How the results depend on the processing

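Among the 7 tested core genes, no difference changed sign under any of the 19 alternatives, where each could be fitted. NID1, at a mean of 3.48 FPKM, dropped out at a minimum of 5 FPKM. The number of core genes called lower ranged from 4 to 6, and 1 was called higher throughout. NID1 ranged from -3.38 to -2.11 and NID2 from 3.12 to 4.48, the outermost values of each coming partly from the pseudocount of 0.1 (-3.38 and 4.48), and COL18A1 was at -0.43 once the trend on GC and length was taken out. At a minimum of 5 FPKM, which tests 5689 genes, 1361 of all genes were called higher in place of 3084, and 17 partner genes in place of 30. Leaving out 1 library at a time gave 2239 to 3306 genes called higher and 1940 to 2547 lower, and 21 to 33 partner genes higher. Deviations of same-numbered replicates from their group means correlated at 0.01, 0.14 and -0.05, and those of differently numbered ones at -0.14 to 0.14. With 3 libraries per group, these values cannot settle whether the numbers pair libraries. With the replicate block, 2984 genes were called higher and 2335 lower, and 5 core genes lower and 1 higher. Of the genes named without a call, LAMC1 turned to -0.18 once the trend on GC and length was taken out, and ranged from -0.03 to 0.38 when 1 library was left out, while DAG1 ranged from -1.11 to 0.49. SYNPO lay at the threshold, with a log2 difference of -0.40 and an adjusted p of 0.05. Its call depended on the alternative, with an adjusted p of 0.00473 without sgControl replicate 1 and 0.222 under TPM. Depth per library is unknown.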

Other observations

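Of the 115 partner genes, 40 were below the mean of 1 FPKM and were not tested. Of these, 9 had a mean of at least 0.1 FPKM, and in 8 of them the groups did not overlap, 5 higher and 3 lower in sgPLOD2. Over all 5809 untested genes in that range of levels, the groups did not overlap in 47.3%, with 29.6% higher and 17.7% lower. They were singled out after their values were seen. HPSE, for heparanase, which cuts the heparan sulfate chains of perlecan and agrin, had 0.140, 0.159 and 0.134 FPKM in sgControl, against 1.64, 1.64 and 1.67 FPKM in sgPLOD2. LAMA5, for the main laminin alpha chain of mature kidney basement membranes, had 0.707 ± 0.049 and 1.26 ± 0.15 FPKM (SD, n = 3 each), and PAPLN, for papilin, 0.517 ± 0.130 and 1.32 ± 0.05 FPKM. ITGA1, for a collagen IV receptor chain, and MIA2, for an endoplasmic reticulum export factor, were the others on the higher side. TINAG, for a tubular basement membrane antigen, had 1.12 ± 0.22 and 0.298 ± 0.114 FPKM, MMP10 0.630 ± 0.111 and 0.0661 ± 0.0441 FPKM, and LAMA1 0.172 ± 0.041 and 0.0530 ± 0.0149 FPKM, all lower in sgPLOD2.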
